A study of Mus musculus with 2 samples.

Results

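The genes described here encode checkpoint receptors, surface proteins through which a T cell receives signals that mostly restrain it. The 10 genes are Pdcd1, Lag3, Tigit, Havcr2, Btla, Cd160, Vsir, Cd96, Cd226 and Cd200r1, of 21887 protein-coding genes placed on chromosomes 1 to 19, X and Y. They were chosen by name. A gene's locus was its span in the mm10 mouse genome with 50 kb on each side, and every peak touching a locus was a member peak. The loci held 115 of 64910 peaks in the treatment library and 130 of 85137 in the control library.

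The peaks come from ATAC-seq, in which a transposase inserts adapters into open DNA, done on mouse T cells that the series title calls Peml-1 CD8+ T cells. There was 1 library titled treatment and 1 titled control. A separate treatment field reads "Combined treatment" for the treatment library and "Treatment" for the control library, so the labels do not name the groups alike, and they do not say what was given. Strain, age and sex are not among the labels, and the genotype field holds a description of the assay. Without replicates no test was possible between the libraries, and every difference below is one between these 2 libraries with no replicate check.

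Several checkpoint receptors, though not all, are switched on after antigen stimulation. Those stay high on CD8+ T cells that meet antigen for a long time, as in chronic infection and tumours. PD-1, the product of Pdcd1, binds PD-L1 and PD-L2 and recruits phosphatases that dampen signalling from the antigen receptor and CD28. TIGIT, CD96 and CD226 share ligands of the nectin family, and of these CD226 is the activating receptor. Open chromatin at a gene marks DNA that regulatory proteins can reach, and it is not a measure of RNA or protein.

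Havcr2, the gene of the receptor TIM-3, had the 2 lowest ratios of treatment to control enrichment among the 10 loci. Of the peaks nearer to Havcr2 than to any other protein-coding gene, 2 were found in treatment and 5 in control. The shared 2 had a fold enrichment of 0.312 and 0.327 times the control's. Among all peaks that overlapped 1 to 1, the lowest ratio was 0.109, and 11.3% had a ratio of at most 0.5. The share with ratios as low as those 2 was not computed. The distal peaks upstream of Pdcd1 were in both libraries, with ratios near the median of all peaks. Btla had the same 11 sites in both libraries, with the fold higher in treatment at 5, of which 2 reached 1.5 times the control, and lower at 6. The remaining loci had most of their sites in common, and mostly weak peaks made up the sites found in 1 library.

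Across the 10 loci, peak numbers were lower in treatment at 8 genes, higher at 1 and equal at 1. Over all 18726 protein-coding genes with a locus peak in either library, 77.9% had fewer peaks in treatment, 6.22% had more and 15.9% had as many, so the count of members is close to the background. Pdcd1 had 8 peaks in treatment and 10 in control. Lag3 had 12 and 13, Tigit 9 and 12, Havcr2 12 and 15, and Btla 11 and 11 in treatment and control. Cd160 had 7 peaks in treatment and 8 in control. The count for treatment exceeded that for control at Vsir, with 16 in treatment and 15 in control. Cd96 had 13 in treatment and 14 in control, Cd226 16 and 17, and Cd200r1 11 and 15, the largest gap. The median difference was −1 peak at the members and −2 peaks over all genes. Treatment peaks numbered 0.885 times the control peaks at the members, against 0.768 at the loci of all protein-coding genes. With the control list shortened to the length of the treatment list by p-value, the ratio at the members was 1.06, beside a ratio over all peaks that is then 1 by construction.

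Overlap of 1 bp or more with any peak of the other list made a peak shared. Of the treatment peaks at the members, 9 of 115 were found in treatment only, which is 7.83% (95% Wilson interval 4.17 to 14.2%), beside 6.8% of all treatment peaks. Of the control peaks, 23 of 130 were found in control only, which is 17.7% (12.1 to 25.2%), beside 29.2% of all control peaks. These intervals cover counting error alone. A peak missing from a list means that the authors' peak caller did not pass it, not that the site held no reads. In cells assayed in bulk, fewer cells with an open site and less opening per cell cannot be told apart. The peak caller's fold enrichment, the read coverage at the summit over the local background, is the authors' value for each peak. The 9 treatment-only peaks had folds of 1.66 to 3.30, and all lay low in their list. The 23 control-only peaks ranged more widely, from 2.12 to 17.8 with a median of 4.27. Among control peaks with a fold of at least 10, 5 of 59 at the members were control-only, beside 5.57% of all such peaks. Below that fold it was 18 of 71, or 25.4%, beside 45.4% of all.

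**Figure D1:**
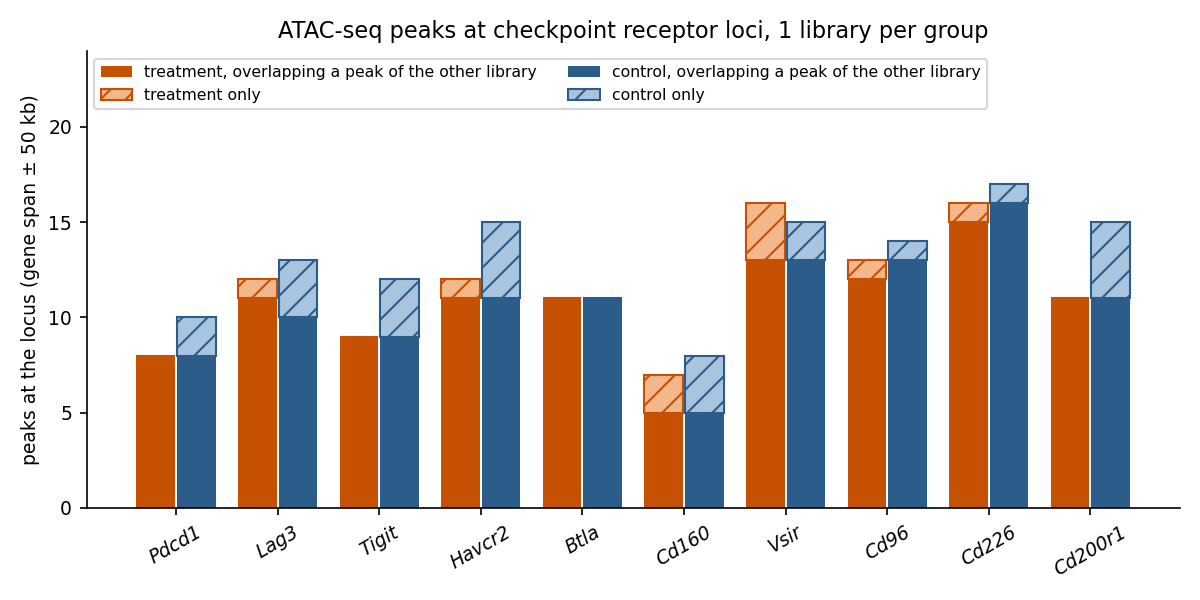
Number of ATAC-seq peaks at each locus (gene span with 50 kb on each side), treatment left of control, with 1 library each. Solid parts are shared peaks and hatched parts are peaks found in that library alone. Btla has no hatched part, and Cd200r1 and Havcr2 have the tallest hatched control parts, 4 peaks each.

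Where 1 treatment peak and 1 control peak overlapped each other and nothing else, they were set side by side as a pair. The members had 102 such pairs, of 58890 in all. The fold was lower in treatment in 67 of the 102, beside 75.6% of all pairs, and the median ratio of treatment to control was 0.865, beside 0.836. The treatment fold was at most 0.5 times the control fold in 7 of the 102, beside 11.3% of all pairs, and at least 1.5 times in 4, beside 1.84%. It was at least 2 times in none of the 102, beside 0.411% of all pairs. The loci of Btla (with 2), Havcr2 and Cd96 held the 4 ratios of at least 1.5, and those at Havcr2 and Cd96 were at peaks nearer to another gene. Havcr2 gave the smallest ratio, 0.312, and Btla the largest, 1.94. Treatment peaks were the narrower in 75 of the 102 pairs, beside 78.4% of all, with a median width of 520.5 bp in treatment and 599.5 bp in control. Summits lay within 50 bp of each other in 87 of the 102, beside 81.7% of all pairs, which is near the members' share.

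Coverage at a summit was recovered as a whole number of reads from the fold and the −log10 p-value, and it gives the depth behind each fold. The caller's lowest background, divided by the narrowest peak width, was 1.006 times as high in treatment as in control, so both libraries had about the same depth by this measure. The median ratio of summit coverage of treatment to control was 0.791 over the 102 pairs and 0.705 over all pairs. Summit coverage was thus mostly lower in treatment, at the members and over all pairs.

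**Figure D2:**
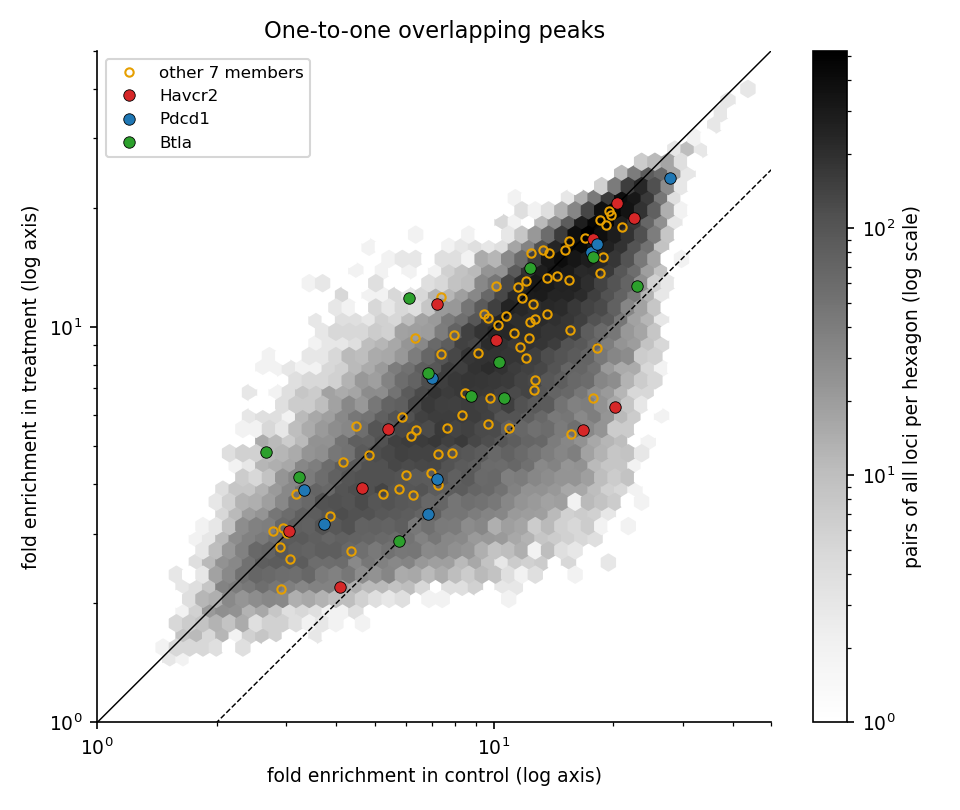
Fold enrichment of peaks that overlap 1 to 1, treatment on the vertical axis and control on the horizontal axis, both logarithmic. Grey hexagons count all 58890 pairs, circles are the 102 pairs at the members, the solid line marks equal folds and the dashed line a ratio of 0.5. Most circles lie inside the grey cloud, and 2 Havcr2 pairs lie well under the dashed line, at treatment folds of 6.29 and 5.48.

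Havcr2 encodes TIM-3, a receptor of terminally exhausted CD8+ T cells whose ligands include galectin-9 and CEACAM1. The gene lies on chromosome 11 from 46454931 to 46481255, and its start was covered by a peak in both libraries. At that peak the fold was 6.29 in treatment and 20.2 in control, with summit coverages of 100 reads (95% Poisson interval 81.4 to 121.6) and 589 reads (542.4 to 638.5) in treatment and control. The summit was at the same base, 0.067 kb upstream of the start. The peak was 353 bp wide in treatment and 647 bp in control. Within its own list it stood at percentile 42.9 of all treatment peaks by fold and at percentile 93.6 of all control peaks. The ratio of coverage was 0.170, lower than that of the folds. Another site, 7.22 kb into the gene, had a fold of 5.48 and 87 reads in treatment, against 16.8 and 329 reads in control. Of the 17213 pairs with a control fold of at least 15, 11.8% had a treatment fold of at most 0.5 times the control's, and of the 25 such pairs at the members 5 did.

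Further along Havcr2, 3 control peaks had no counterpart in treatment. The first, at 46466851 to 46467318, had a fold of 11.9 and 234 reads. The next, at 46474117 to 46474654, had 17.8 and 268 reads and was the strongest control-only peak of the 10 loci. The last, at 46488163 to 46488687, 7.18 kb past the gene's span, had 14.0 and 211 reads. The lowest summit coverage of any treatment peak was 31 reads, well under the control coverage at these 3 sites. Treatment coverage at sites it did not call is not in the peak lists. Of the 18726 genes with a locus peak, 68 (0.363%) had at least 3 control-only peaks with a fold of at least 10, a limit chosen after the values were seen. Genes with overlapping loci count the same peaks more than once in that number.

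On the upstream side of the Havcr2 locus most of the shared peaks had similar folds. Between 6.68 and 33.2 kb upstream of the start, 6 sites were found in both libraries and 1 in control alone, and these were nearer to other genes than to Havcr2. The peak in Med7, which encodes a subunit of the Mediator complex, had a fold of 20.6 in treatment and 20.4 in control. A peak 23.6 kb upstream of Havcr2 had 18.9 in treatment and 22.5 in control. The farthest, within Fam71b and 49.8 kb upstream, had 11.4 in treatment and 7.20 in control, a ratio of 1.59, with nearly equal coverages of 387 and 399 reads in treatment and control. A weak site 44.5 kb upstream had 47 reads in treatment and 61 in control, with a fold ratio of 0.538, and a weak one 49.4 kb downstream had 3.05 and 3.04 in treatment and control. Also upstream were a control-only peak at 30.1 kb, with a fold of 3.70 and 170 reads, and a treatment-only peak at 42.0 kb, with 2.80 and 44 reads. The 5 sites nearer to Havcr2 were all lower or missing in treatment. Both were common elsewhere, since 75.6% of all pairs had the lower fold in treatment and 29.2% of all control peaks were control-only.

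**Figure D3:**
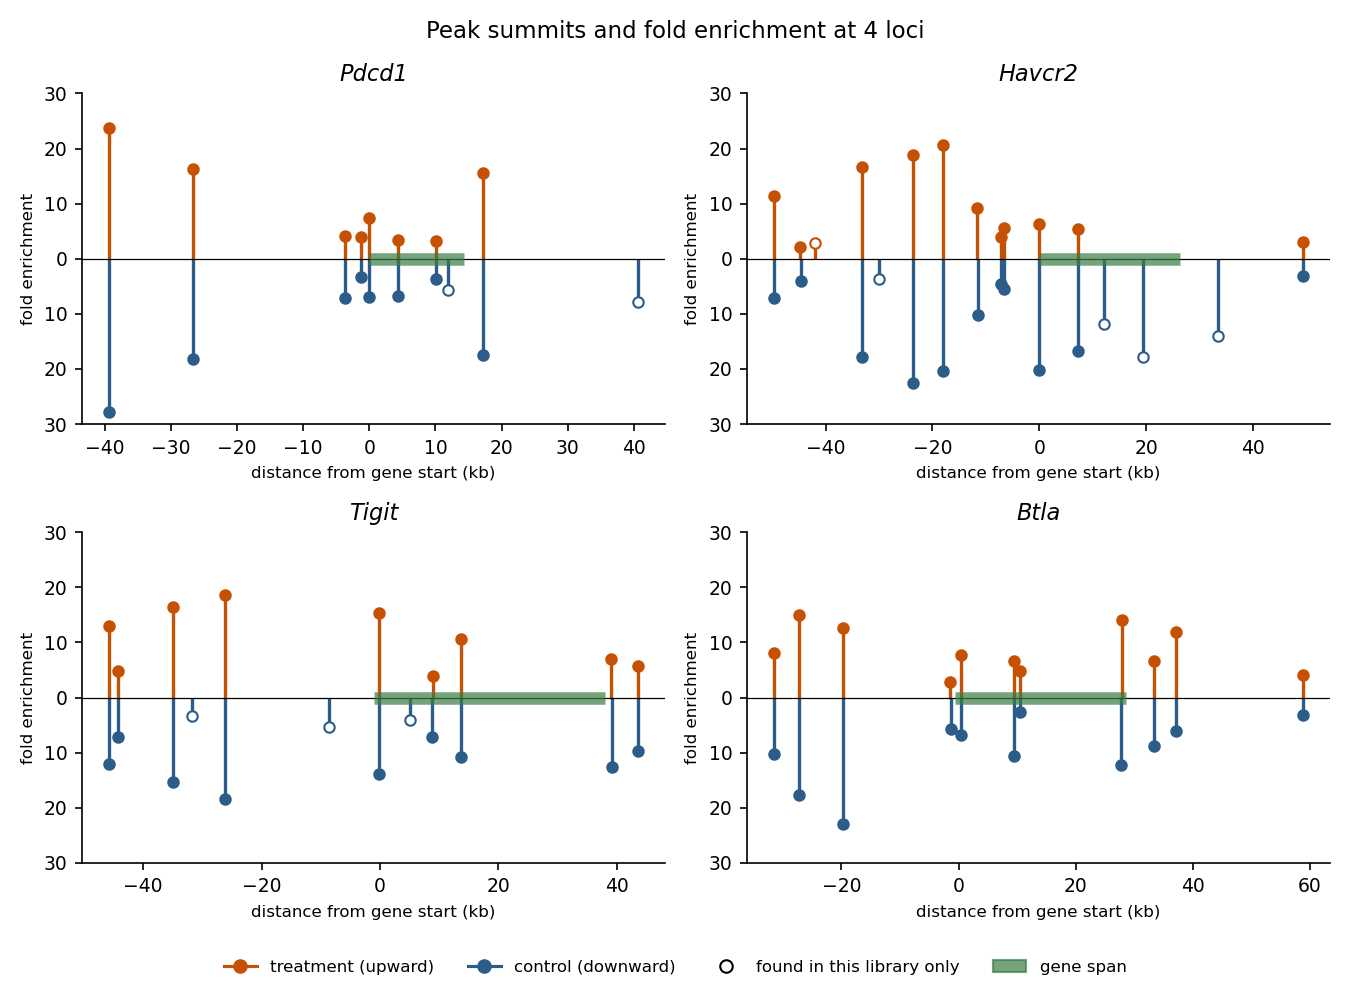
Peak summits at Pdcd1, Havcr2, Tigit and Btla by distance from the gene start in kb (negative is upstream), with fold enrichment as the height, treatment upward and control downward. Open circles are peaks found in 1 library, and the green bar is the gene span. At Havcr2 the bars within the gene are short or missing in treatment, while most of those upstream are alike.

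To show the DNA at the start with the smallest ratio, the 250 bases before it are given for Havcr2, and beside it for Pdcd1, Tigit and Btla, where the fold was slightly higher in treatment. The sequences are from RefSeq (GRCm38.p6, the assembly of mm10), 5′ to 3′ on the gene's strand, and capitals mark the matches to 8 short motifs searched on both strands: TGANTCA (AP-1), TGTGGT (Runx), CCGGAAG (Ets), CTTTGA (TCF/LEF), TTCNNNGAA (STAT), TGGAAA (NFAT) and the NF-kB and IRF motifs.
Havcr2, chr11:46454681-46454930, plus strand: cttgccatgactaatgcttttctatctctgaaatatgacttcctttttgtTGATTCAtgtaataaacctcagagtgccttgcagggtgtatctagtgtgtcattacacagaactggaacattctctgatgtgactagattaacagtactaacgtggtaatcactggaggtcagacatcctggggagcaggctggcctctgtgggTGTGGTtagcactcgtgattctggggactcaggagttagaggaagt
Pdcd1, chr1:94052554-94052803, minus strand: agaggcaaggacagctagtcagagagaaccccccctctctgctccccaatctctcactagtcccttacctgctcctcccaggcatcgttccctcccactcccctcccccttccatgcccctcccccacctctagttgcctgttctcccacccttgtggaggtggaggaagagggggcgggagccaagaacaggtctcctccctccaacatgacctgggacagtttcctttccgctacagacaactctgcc
Tigit, chr16:43664185-43664434, minus strand: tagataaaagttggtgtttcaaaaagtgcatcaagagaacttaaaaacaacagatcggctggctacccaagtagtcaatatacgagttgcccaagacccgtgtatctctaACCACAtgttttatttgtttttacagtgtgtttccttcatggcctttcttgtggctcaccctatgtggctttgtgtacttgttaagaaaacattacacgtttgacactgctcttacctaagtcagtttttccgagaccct
Btla, chr16:45224087-45224336, plus strand: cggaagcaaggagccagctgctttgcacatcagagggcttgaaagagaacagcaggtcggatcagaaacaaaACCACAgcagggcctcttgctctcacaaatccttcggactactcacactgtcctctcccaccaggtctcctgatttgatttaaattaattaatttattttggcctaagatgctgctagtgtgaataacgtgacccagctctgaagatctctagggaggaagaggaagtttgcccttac

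Havcr2 held an AP-1 match from 200 to 194 bases upstream of its start and a Runx match from 46 to 41 bases upstream. Tigit and Btla each held 1 Runx match, from 140 to 135 and from 178 to 173 bases upstream of their starts. Pdcd1 held none of the 8 motifs in this window. Counting the 8 windows of the 7 members with an entry in the promoter table, the Runx letters were in 6, beside 14.0% of all 32851 windows and 10.8% of the 14026 windows with a peak in both libraries. The AP-1 letters were in 1 of the 8, beside 6.75% of all windows, and the Ets, NF-kB and IRF letters were in none. The windows differed in base composition, with G and C making up 60.4% at Pdcd1 and Vsir, 44.8% at Havcr2 and 40% at Tigit, against a median of 52.4% over all windows. A match describes the letters and not a bound site, and the members were too few and too mixed in composition for the shares to say more.

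Pdcd1 (chromosome 1, 94038305 to 94052553) had its strongest peak far upstream, 39.4 kb before the start, at 94091672 to 94092455 in control. Its fold was 23.8 in treatment and 27.7 in control, at percentile 99.6 of the treatment list and 99.9 of the control list, with 644 and 885 reads in treatment and control. Another distal peak, 26.7 kb upstream, had 16.3 in treatment and 18.2 in control, with 307 and 330 reads. Another distal site lay 17.1 kb downstream of the start, past the far end of the gene, with 15.5 and 1521 reads in treatment and 17.6 and 2315 reads in control. All these were nearer to Pdcd1 than to any other protein-coding gene. Regulatory elements both upstream and downstream of Pdcd1 have been described in activated and in exhausted mouse CD8+ T cells. The ratios of 0.858, 0.891 and 0.882 at these sites were close to the median of all pairs.

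Nearer to the Pdcd1 start, some peaks were higher in treatment and others lower. The peak over the start had a fold of 7.42 in treatment and 6.96 in control, though with 310 reads in treatment and 479 in control. A peak 3.62 kb upstream in control had 4.13 in treatment and 7.20 in control, with 154 and 433 reads. One within the gene, 4.35 kb from the start, had 3.37 in treatment and 6.83 in control, a ratio of 0.493 and the lowest of the locus. A weak peak 1.24 kb upstream went the other way, with 3.88 in treatment and 3.33 in control. Both control-only peaks of the locus were moderate. The one in the gene, at 94040502 to 94040777, had a fold of 5.62, and the other, at 94011785 to 94011999 and nearer to another gene, had 7.85.

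TIGIT, CD96 and CD226 compete for CD155 and other nectin-family ligands, TIGIT inhibiting and CD226 activating T cells, while CD96 has been given both roles in mouse cells. Tigit (chromosome 16, 43626137 to 43665125) had its strongest peaks in both libraries with similar folds. Its start peak had a fold of 15.4 in treatment and 13.8 in control, with nearly equal coverage, 713 and 716 reads. The peaks 26.2 and 34.9 kb upstream had 18.6 and 16.5 in treatment, against 18.5 and 15.4 in control. Within the gene, 13.6 kb from the start, the folds were 10.7 in both libraries, though with 210 reads in treatment and 345 in control. Other sites had a lower fold in treatment. A peak 8.80 kb into the gene in control had 3.997 in treatment and 7.24 in control. The site past the far end of the gene, 39.1 kb from the start and within Zbtb20, had 6.92 in treatment and 12.6 in control. The 3 control-only peaks of this locus had folds of 4.14, 5.41 and 3.43, and treatment had no peak of its own.

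At Cd96 (chromosome 16, 46035652 to 46120248) 12 of 13 treatment peaks and 13 of 14 control peaks were shared. The start was covered by a single treatment peak of 1801 bp with a fold of 13.9, which took in 2 control peaks of 485 and 1178 bp with folds of 2.42 and 13.1. Inside the gene, a peak 15.5 kb from the start had 12.7 and 679 reads in treatment, against 10.1 and 466 reads in control. Its neighbour 12.6 kb from the start had 8.89 in treatment and 11.6 in control. The control-only peak, 19.8 kb into the gene, had a fold of 7.14. Beyond the far end of the gene, on the side of Plcxd2, a peak 121.8 kb from the start was nearer to another gene. It had 11.9 and 449 reads in treatment, against 7.35 and 252 reads in control, a ratio of 1.62. The strongest peak of the locus, 97.8 kb from the start and nearer to another gene, had 15.7 in treatment and 15.1 in control. Its coverage was 1825 reads in treatment and 1454 in control.

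Cd226 (chromosome 18, 89176954 to 89272232) had the most control peaks of the 10 loci, 17, and 16 in treatment, and 14 of the treatment and 15 of the control peaks were nearer to it than to another gene. The peak over the lower end of its span had a fold of 8.35 in treatment and 12.0 in control. Sites inside the gene went in both directions. The peak at 89241326 to 89241789 in control had 9.38 and 951 reads in treatment, against 6.32 and 528 reads in control. That at 89237833 to 89238661 had 5.55 and 374 reads in treatment, against 10.9 and 627 reads in control. A treatment peak of 2015 bp took in 2 control peaks of 1279 and 430 bp. Outside the gene, within Dok6, which encodes an adaptor protein, a peak had 5.37 and 132 reads in treatment, against 15.6 and 500 reads in control. Its ratio was 0.344, and among the members lower ratios were found at the 2 Havcr2 peaks alone. A nearby peak, at 89301152 to 89301715 in control and also nearer to another gene, went the other way. Its fold was 15.4 in treatment, the highest of the locus there, and 12.4 in control, with 370 and 393 reads.

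BTLA and CD160 bind the same ligand, HVEM, a member of the TNF receptor family encoded by Tnfrsf14. Btla (chromosome 16, 45223705 to 45252895) was the one locus of the 10 without a peak confined to 1 library. Of genes with a control peak at the locus, 13.9% had no control-only peak, and of those with a treatment peak 69.2% had no treatment-only peak, as was so for Btla, Pdcd1, Tigit and Cd200r1. Where summits had to lie within 150 bp, Btla had 1 peak in each library without a partner. It had 1 treatment-only peak with a −log10 q of at least 10 and 2 with lists of equal length. The broad peak at the start had a fold of 7.63 and 560 reads in treatment, against 6.81 and 582 reads in control. Downstream of the start, 2 peaks were stronger in treatment by more than 1.5 times. The first, 37.2 kb from the start at 45261329 to 45261792, had 11.9 and 314 reads in treatment, against 6.12 and 136 reads in control. The other, 10.5 kb from the start, rested on little coverage, with 4.84 and 78 reads in treatment, against 2.67 and 40 reads in control. A peak at 27.7 kb had 14.1 and 467 reads in treatment, against 12.3 and 375 reads in control. Others on this side were lower in treatment, such as that at 9.41 kb with 6.61 in treatment and 10.6 in control. All 4 peaks upstream of the start were lower in treatment. The peak 19.8 kb upstream had 12.7 and 203 reads in treatment, against 22.9 and 528 reads in control, and a weak one 1.36 kb upstream had 2.87 in treatment and 5.78 in control. By distance to a gene's span, the peak at 19.8 kb was nearer to Atg3, which encodes an autophagy enzyme.

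Cd160 (chromosome 3, 96798763 to 96829351) had 2 starts in the promoter table, and both libraries had a peak at the same one of them. The inner start lay under a broad peak in both libraries, with a fold of 10.5 in treatment and 9.69 in control and widths of 2099 and 2141 bp. The summits within this peak lay 1255 bp apart, so these folds were read at different places. Neither library had a peak over the outer start. To let these be compared, the 250 bases before each start follow, with capitals for the same motifs.
Cd160 inner start, chr3:96814522-96814771, minus strand: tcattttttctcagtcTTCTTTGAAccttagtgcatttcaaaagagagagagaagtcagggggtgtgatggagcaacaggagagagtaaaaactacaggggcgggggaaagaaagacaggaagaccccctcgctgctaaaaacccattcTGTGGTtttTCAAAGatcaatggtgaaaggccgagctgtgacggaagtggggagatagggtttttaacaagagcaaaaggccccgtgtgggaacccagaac
Cd160 outer start, chr3:96829352-96829601, minus strand: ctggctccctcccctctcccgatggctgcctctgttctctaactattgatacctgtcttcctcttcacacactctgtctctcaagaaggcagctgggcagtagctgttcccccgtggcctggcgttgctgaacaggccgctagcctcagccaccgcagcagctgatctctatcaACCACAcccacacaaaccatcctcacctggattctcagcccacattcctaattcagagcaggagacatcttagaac
The inner window held TCF/LEF, STAT and Runx letters, and its STAT match overlaps 1 of the TCF/LEF matches. The outer window held 1 Runx match. Between the starts, 3 kb from the outer one, a control-only peak at 96826143 to 96826430 had a fold of 11.7 and 176 reads. On the other side of the outer start, 4.15 kb upstream and within Pdzk1, a shared peak had 6.61 and 105 reads in treatment, against 17.8 and 322 reads in control, a ratio of 0.371. Both treatment-only peaks of the locus were weak and lay within Pdzk1, with folds of 2.89 and 1.66.

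**Figure D4:**
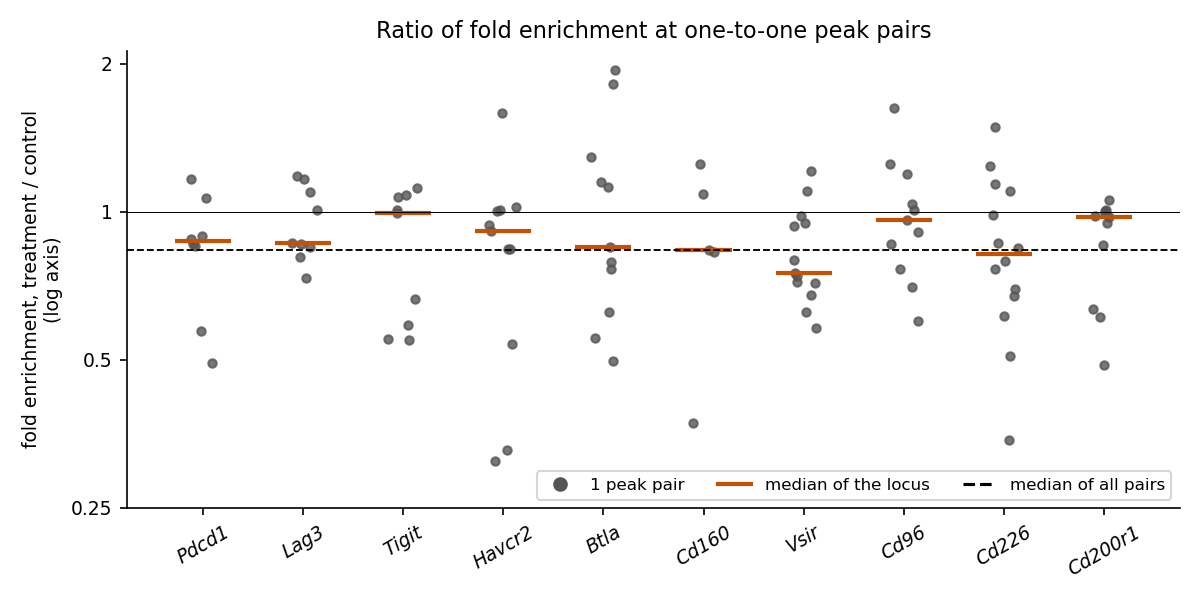
Ratio of fold enrichment, treatment over control, at each 1-to-1 pair of overlapping peaks, by member, on a logarithmic axis. Points are pairs, orange lines are medians of the locus and the dashed line is the median of all pairs, 0.836. Havcr2 has 2 points near 0.3 and Btla 2 points above 1.5, while the medians of the loci lie between 0.751 at Vsir and 0.995 at Tigit.

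LAG-3, the product of Lag3, resembles CD4 and binds MHC class II. Its gene (chromosome 6, 124904359 to 124912434) lies beside Cd4 in a gene-dense region, and of its locus peaks 5 of 12 in treatment and 4 of 13 in control were nearer to Lag3 than to a neighbour. At the lower end of the span, the peak had a fold of 9.66 and 549 reads in treatment, against 11.2 and 789 reads in control. Inside the gene, one peak had 5.57 in treatment and 7.61 in control, and the other 4.57 in treatment and 4.15 in control. A peak between Cd4 and Lag3, at 124900227 to 124901409 in control, had 8.56 in treatment and 7.35 in control. The site within Cd4 was 1 control peak of 1517 bp with a fold of 13.6 and 2 treatment peaks of 217 and 787 bp with folds of 3.73 and 14.9. The strongest peak, in Ptms, was alike in both, with 19.6 in treatment and 19.5 in control. The 3 control-only peaks and the 1 treatment-only peak had folds of at most 4.49 and 2.91.

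VISTA, encoded by Vsir, is an inhibitory protein kept on resting T cells and myeloid cells. Vsir (chromosome 10, 60346851 to 60430294) lies inside the span of Cdh23, a cadherin gene of sensory hair cells, so no peak could be placed nearer to Vsir. Its body held a row of strong shared peaks. Those 24.05, 34.4 and 42.9 kb from the start had folds of 13.3, 12.6 and 13.4 in treatment, against 13.6, 11.5 and 14.4 in control. Coverage at these 3 was high, from 1332 to 1823 reads in treatment and from 1597 to 1929 in control. The strongest peak of the locus, 51.4 kb from the start, had 15.1 in treatment and 18.9 in control, a ratio of 0.798. A peak 41.4 kb upstream of the start had 13.7 in treatment and 18.5 in control, a ratio of 0.739. The start peak had 5.98 and 1326 reads in treatment, against 8.30 and 1546 reads in control. Of the 13 pairs, 11 had the lower fold in treatment, beside 75.6% of all pairs. The median fold ratio of the 13 was 0.751, the lowest of the loci. The order of the loci differed by summit coverage. Its median ratio was 0.834 at Vsir, beside 0.705 over all pairs, and was lowest at Tigit, 0.627. One control-only peak was strong, at 60411323 to 60411910, with a fold of 12.4 and 402 reads. The 3 treatment-only peaks had 38 to 52 reads.

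CD200R1 restrains cells through DOK adaptor proteins after binding CD200. Cd200r1 (chromosome 16, 44765736 to 44794977) had 4 control-only peaks, all with folds of at most 4.27, and no treatment-only peak. At the lower end of its span the peak spanned the same 1437 bases in both libraries, with a fold of 11.8 in each and 494 reads in treatment against 702 in control. In the gene body, a peak at 44778509 to 44779183 in control had 8.85 and 141 reads in treatment, against 18.2 and 274 reads in control. The next, past the upper end of the span, had 9.85 in treatment and 15.5 in control. Toward Nepro and Gtpbp8, the ratios were 0.949, 0.976 and 0.992 at the 3 strongest peaks, and 0.611 at a weaker one with 4.80 in treatment and 7.85 in control. In Cd200r4, a related receptor gene, the fold was 18.0 in treatment and 21.0 in control.

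**Figure D5:**
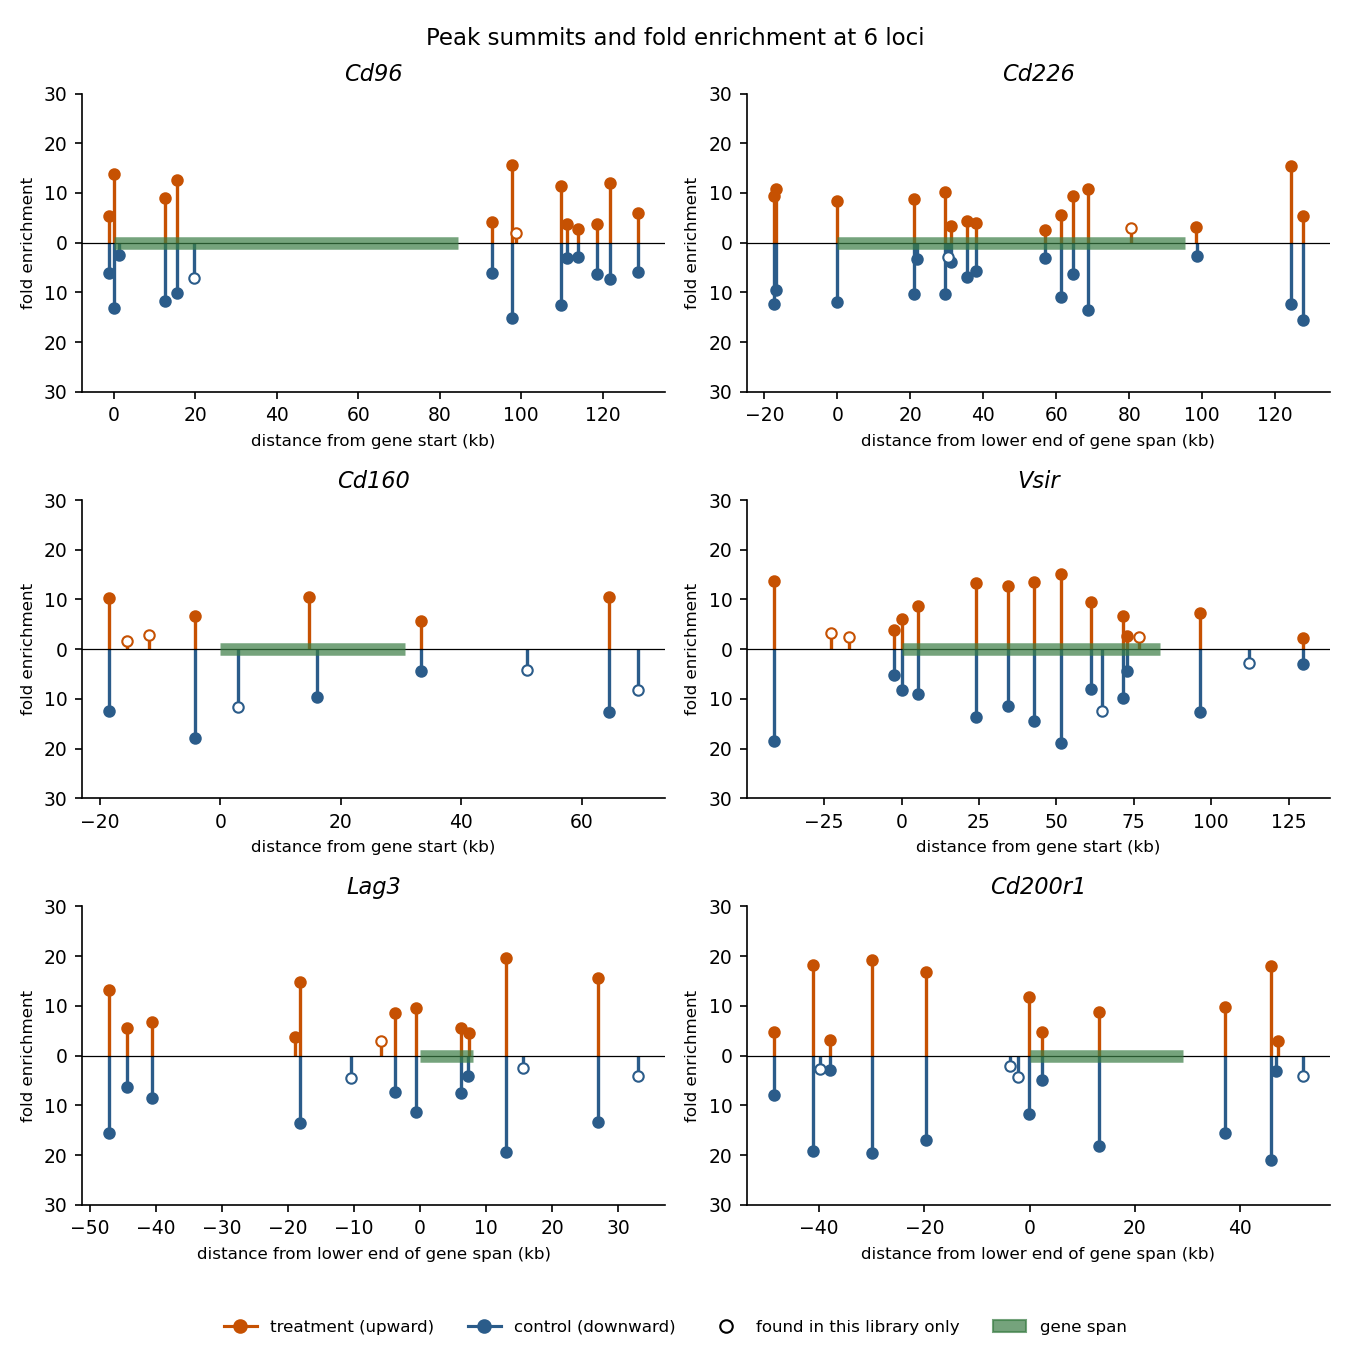
Peak summits at Cd96, Cd226, Cd160, Vsir, Lag3 and Cd200r1 with fold enrichment as the height, treatment upward and control downward. Distances are in kb from the gene start for Cd96, Cd160 and Vsir and from the lower end of the gene span for the others, open circles are peaks found in 1 library and the green bar is the gene span. Open circles are mostly short, with taller ones in control at 11.7 in Cd160 and 12.4 in Vsir.

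Of the listed gene starts, those of the 6 members with 1 listed start (Pdcd1, Vsir, Havcr2, Tigit, Btla and Cd96) lay under a peak in both libraries, as did the inner start of Cd160. Of the 27025 genes in the promoter table, 44.8% had a peak touching a window from 250 bases before to 50 after a listed start in treatment and 48.1% in control. At Pdcd1, Tigit and Btla the start peak's fold was higher in treatment, with ratios of 1.07, 1.12 and 1.12. It was also higher in treatment at Cd96, with 13.9 in treatment and 13.1 in control for the stronger of the 2 control peaks. At the inner start of Cd160 the ratio was 1.09, with summits 1255 bp apart. At Vsir the ratio was 0.720, and at Havcr2 it was 0.312. Summit coverage was not higher in treatment at any of these start pairs. Its ratios were 0.647 at Pdcd1, 0.996 at Tigit, 0.962 at Btla, 0.732 at Cd160, 0.858 at Vsir and 0.170 at Havcr2. Cd96 had no 1-to-1 pair at its start.

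Genes around the checkpoint receptors were counted in the same way, with their locus peaks. Sums over a list add the counts of its genes, so a peak in overlapping loci, such as those of Cd274 and Pdcd1lg2, can count more than once. Of 12 ligand and partner genes, 8 had fewer peaks in treatment, 1 more and 3 as many, with summed counts of 92 in treatment and 113 in control. Cd274 and Pdcd1lg2, which encode the PD-1 ligands and lie near each other on chromosome 19, had 11 and 14 peaks in treatment, against 16 and 19 in control. Pvr, the gene of CD155, had 14 in treatment and 17 in control, and Cd200, the ligand of CD200R1, had 6 and 9. Nectin2 was the 1 gene with more, 12 in treatment and 11 in control. Of 12 signalling genes, 9 had fewer peaks in treatment, 1 more and 2 as many, with summed counts of 195 and 231 in treatment and control. The largest gaps were at the kinase gene Fyn, with 41 in treatment and 50 in control, at the adaptor gene Grb2, with 23 and 30, and at Inpp5d, which encodes the phosphatase SHIP-1, with 9 and 14. Ptpn6, the gene of the phosphatase SHP-1, had 22 in treatment and 20 in control. Of 12 other inhibitory receptor genes, 10 had fewer peaks in treatment, 1 more and 1 as many, with summed counts of 147 and 184 in treatment and control. Cd244a had 10 in treatment and 19 in control, Pilra 10 and 18, and Cd300a 8 and 15. Cd5 was the 1 gene with more, 24 in treatment and 23 in control. The median difference was −1.5, −2.5 and −2 peaks in these lists, beside −2 over all genes. The ratios of summed counts were 0.814, 0.844 and 0.799, beside 0.785 over all genes with a locus peak. Of those genes 77.9% had fewer peaks in treatment, so the lists were near the background.

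Marker genes of several cell types were looked up as well. All 10 CD8 T cell marker genes, Cd8a, Cd8b1 and the CD3 chains among them, had a peak within 1 kb of their span in both libraries. Of 6 NK cell markers, 3 had one in each library, with none at Ncr1, Klrb1c and Klra8. Of 10 myeloid and dendritic markers, 6 had one in treatment and 8 in control, and 6 of 6 CD4 T cell markers had one in both. The share of all genes with such a peak was not computed, so these counts do not identify the cell type. Lck, Cd5 and Ctla4 stand in 2 lists each, and Cd4 lies inside the Lag3 locus. The summed marker peaks were 46 and 43 for CD8 T cells, 8 and 7 for NK cells, 22 and 22 for myeloid cells and 27 and 24 for CD4 T cells, in treatment and control. Several member genes are also used by NK and myeloid cells, and whether other cells contributed to the member peaks was not tested.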

How the data were processed

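Per the submitters' processing notes, the authors used Picard 2.20, cutadapt 2.5, Bowtie2 2.3, the build mm10 and MACS2, whose version is not named. Settings, read filters and any shift for the transposase are not given in the sources used here. Peaks were called per library. Each deposited peak has a score (−log10 q times 10, cut to a whole number), a fold enrichment as a ratio, and its q-value and p-value as −log10, all from the authors' caller. The lowest −log10 q was 2.00 in each library.

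Autosomal, X and Y peaks entered the analysis with Python 3.11.15 and pandas 2.3.3. Gene spans and promoter windows came from RefSeq tables of GRCm38.p6. Promoter entries matched 7 of 10 members. Lag3, Cd226 and Cd200r1 are named without one. Summit coverage was solved from the fold and −log10 p, to within 0.001, for 99.98% of treatment and 99.99% of control peaks, and the step was tested on simulated data. Total read numbers were not used here. Fold and coverage were set side by side without a test. They depend on each library's own background and signal-to-noise, which peak lists do not separate from accessibility.

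The members and lists were chosen with earlier results of these data known. All members are named, with their start peak where a start is listed and strong peaks of 1 library. The strongest distal peak of at least 1 library is also given for each. Up to 3 genes of each other list are named by the largest difference, with Cd200 added as a tie. Further peaks, Nectin2, Ptpn6 and Cd5 were named after their values were seen, as were the fold limits of 1.5, 10 and 15. Alternatives were other overlaps, q-value limits, flanks, equal list lengths and the nearest gene. The check on 1 further list of marker genes is not reported here.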

Additional observations from a re-analysis of the deposited data

How the results depend on the processing

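No paired analysis was possible because each group has 1 library. With the control list reduced to the number of treatment peaks by −log10 p-value, the ratio of treatment to control peaks at the members was 1.06 in place of 0.885, on the other side of 1. Lists of equal length put the ratio over all peaks at 1 by construction. The treatment-only share was then 17.4% in place of 7.83%, beside 16.1% of all treatment peaks. Treatment had 2 more peaks than control at Lag3, 1 more at Cd160 and 2 more at Cd226, in place of 1 fewer each. Of the 10 members, 4 then had fewer peaks in treatment, 5 more and 1 as many, so the main count of directions did not hold there. With peaks nearer to the member than to another gene, the treatment-only share was 3.70% and Lag3 had 1 peak more in treatment, and Vsir gave no value since it lies within Cdh23. At Vsir the difference of treatment minus control was −2 peaks with q limited to a −log10 of 5 or more, and −1 with 10 or more, in place of 1. The control-only share at the members ran from 13.8% with lists of equal length to 23.1% with summits within 150 bp. It stayed within the interval of the value reported, 12.1 to 25.2%, in all 8 alternatives. The share of all control peaks was 29.2% as reported and 33.7% with summits within 150 bp. With lists of equal length it was 16.7%, inside the members' interval, so the gap to the members was smaller there. Pdcd1, Tigit and Havcr2 had fewer peaks in treatment in all 6 alternatives that can change the count. Of all genes with a locus peak, 77.9% had fewer in treatment as reported. What limits these values is the lack of a replicate, and the intervals do not cover library-to-library variation.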
